A study of Mus musculus with 16 samples.

Results

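Of 92383 genome tiles measured on the 19 autosomes, 59 (0.0639%) were highly methylated in mouse fibroblasts and in induced pluripotent stem cells (iPSCs), yet nearly unmethylated on day 12 (D12) of chemical reprogramming. A tile is a 1000-bp window counted from the first base of a chromosome. It was used where at least 3 cytosines in CpG context had 10 or more reads in all 16 libraries, and its methylation level is the share of methylated reads among all reads over those cytosines. The 59 tiles had a level of at least 80% in both day 0 (D0) libraries and in both iPSC libraries, and at most 10% in both D12 libraries. Both of their D6 libraries lay less than 25 percentage points below the D0 mean. Measured values therefore chose the members, and their levels at D0, D6, D12 and in iPSCs are given below as descriptions, without a test. The rule did not read the levels at D2, D4, D8 and D10, and these were tested.

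The series used reduced representation bisulfite sequencing (RRBS), in which the enzyme MspI cuts DNA at CCGG sites, so that CpG-rich fragments are sequenced, and bisulfite turns unmethylated cytosines into bases read as thymine. Group D0 held mouse embryonic fibroblasts (MEFs) of passages 1 to 3 from E13.5 embryos of the strain labelled 129XOG2, the cells from which reprogramming began. Groups D2, D4, D6, D8, D10 and D12 were such fibroblasts after the corresponding number of days in reprogramming medium, whose small molecules the labels do not name, and the iPSC group was grown on feeder cells in mESC medium with mLIF, CHIR99021 and PD0325901. Each of the 8 groups had 2 libraries, and all shared the one strain. The labels do not say whether the 2 came from separate cultures, so p-values measure the spread between these libraries, which may be technical. The source field reads MEF for the iPSC libraries too, and the labels do not say whether feeder DNA was kept out of them.

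DNA methylation at CpG sites is copied after replication by the maintenance enzyme DNMT1 with its partner UHRF1, and is set anew by DNMT3A and DNMT3B. It can be lost passively, when copying fails over cell divisions, or actively, through oxidation of the methyl group by TET enzymes. Fibroblasts, like most somatic cells, carry methylation over most CpGs outside active promoters and CpG islands, and cells that become pluripotent rewrite part of that pattern. A bulk library averages over cells, so a tile at an intermediate level can hold a mixture of fully methylated and unmethylated cells or partly methylated cells, and these cannot be told apart.

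The libraries listed between 1480222 and 2516218 cytosines each, with summed coverage from 39011213 reads (D6 replicate 1) to 107834007 reads (D0 replicate 1), and 873038 cytosines reached 10 reads in all 16 libraries. Reads per tile are summed over its measured cytosines, so a read that covers several of them counts once for each. On this count the shallowest library held 30 to 709 reads per tile in the 59 members, with a median of 147. In 38 of the members every library held at least 100 reads. PCR reads carried no molecular identifiers, so the counting intervals given for single libraries cover counting error only. They also treat the summed counts as independent reads, and are too narrow where 1 read covers several cytosines.

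The members kept their fibroblast level through D4, lost a little by D6, fell furthest in the step from D6 to D8 and went on falling to D12. The mean of the 2 library medians over the 59 tiles was 88.5% ± 0.78 (SD, n = 2 libraries, as for the other groups) in fibroblasts. D2 had 86.9% ± 0.24 and D4 86.5% ± 1.25. By D6 it had come to 75.01% ± 0.32, by D8 to 40.6% ± 1.23 and by D10 to 24.8% ± 0.67. At D12 it was 6.67% ± 0.55, and in iPSCs 85.2% ± 0.56. The median tile fell by 82.2 points between D0 and D12, the median difference of iPSCs from fibroblasts was -2.31 points, and 16 of the 59 tiles were higher in iPSCs than at D0. The rule fixed the D0, D6, D12 and iPSC ends of this course, while it set no limit at D2, D4, D8 and D10.

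**Figure D1:**
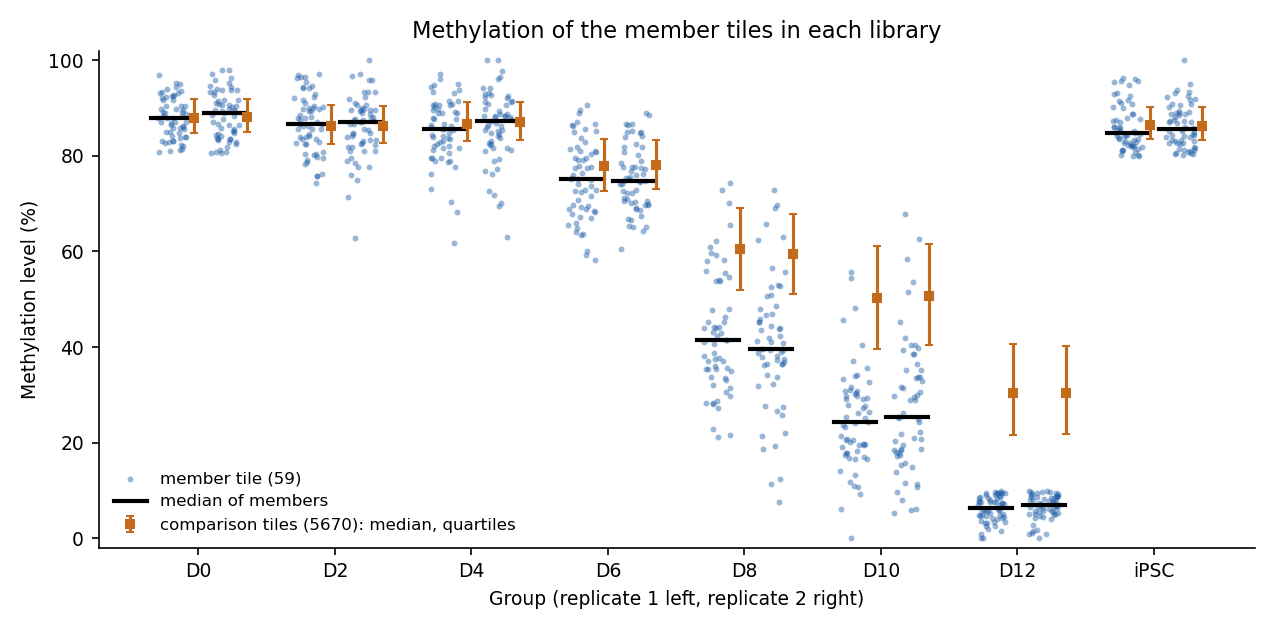
Methylation level (%, vertical axis) of the 59 members and of the comparison tiles in each of the 16 libraries, ordered by group along the horizontal axis, with the medians and quartiles over tiles. The members' medians stay between 85.6% and 89.1% from D0 to D4, reach 41.4% and 39.7% in the D8 libraries and 6.28% and 7.05% in the D12 libraries, and lie at 84.8% and 85.6% in the iPSC libraries.

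The label "fully erased" can be set beside tiles that were low throughout. The 4517 autosomal tiles that stayed below 15% in all 16 libraries had a mean level of 5.00% ± 0.018 at D12, and the members had a mean level of 6.37% ± 0.28 (both the mean of 2 library means ± SD). At single cytosines, 292 of the members' 362 measured sites were at or below 10% at D12, 29 were at 0 and 8, in 6 tiles, were above 20%. In 17 members every site was at or below 10%, and in 53 every site was at or below 20%. Erased stands here for the rule's limit of 10% and not for a level of 0. The rule capped the members' D12 level, so its nearness to that of the low tiles is no check of the label, and the levels in libraries that did not choose the tiles are given below. Only the tile at chr2:165134001-165135000 had no methylated read in either D12 library, among 120 and 53 reads summed over 3 cytosines within 67 bp. Taking 3 reads as the limit that a count of 0 allows, and the counts as independent reads, its level could be up to 2.50% and 5.66%. The upper ends of the exact (Clopper-Pearson) 95% intervals, which are 2-sided, were 3.03% and 6.72%. A read of 150 bp can cover all 3 cytosines, so these limits, and those of the next tile (3 cytosines within 23 bp), are too narrow. The tile at chr16:85382001-85383000 had none among 52 reads in D12 replicate 1, a limit of 5.77% by 3 reads and 6.85% by the exact interval. It had 9.23% in replicate 2. These 2 tiles were chosen for mention after their values were seen.

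Counting error left many members without a firm place under the 10% limit. The upper end of the exact (Clopper-Pearson, 2-sided) 95% interval of the D12 level was at or below 10% in both libraries for 14 members. It was so in one library for 26 and in neither for 19, and the highest upper end was 20.9%. The members nearest the limit were chr18:12564001-12565000, with 7.21% and 9.93% in the 2 D12 libraries, chr10:116292001-116293000, with 8.47% and 9.93%, and chr14:68175001-68176000, with 9.88% and 8.64%. The nearest tiles that met every other condition but missed the limit were chr3:65470001-65471000, with 10.06% and 9.98%, chr3:131184001-131185000, with 10.07% and 8.77%, and chr18:46434001-46435000, with 10.10% and 5.13%. The limit thus divides a continuous distribution. Of the 5729 tiles with the D0, iPSC and D6 conditions, 14 had a D12 mean below 5% and 104 one from 5 to 10%, 329 lay from 10 to 15% and 620 from 15 to 20%.

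To measure the D12 level in libraries that had not chosen the tiles, the rule was applied to replicate 1 alone and the tiles were read in replicate 2, and the other way round. Replicate 1 chose 365 tiles, whose median D12 level was 7.33% where chosen and 14.7% in replicate 2, with quartiles of 9.30% and 21.2%. Replicate 2 chose 379 tiles, whose median D12 level was 7.62% where chosen and 13.51% in replicate 1, with quartiles of 8.77% and 21.6%. Of these tiles, 110 of 365 (30.1%) and 112 of 379 (29.6%) were at or below 10% in the other library. The share at or below 10% was 4.38% (350 of 7983) and 4.80% (390 of 8118) among tiles that met the D0, iPSC and D6 conditions in the choosing replicate at any D12 level. Where all libraries held 300 reads or more, 25 of 62 (40.3%) and 21 of 51 (41.2%) chosen tiles were again at or below 10%. Read in the other replicate, tiles chosen at D12 thus lay well below the median of 28.6% and 28.2% of the tiles they were chosen from, and above the level at which they were chosen. Over all 94337 tiles, the X and Y chromosomes included, the D12 median was 15.4% in replicate 2 and 15.5% in replicate 1. The lower quartile was 9.18% in both. At D12 the chosen tiles, read in the other replicate, were thus near tiles in general. The levels that did not serve the choice at all hardly depended on the replicate: D8 medians in the other replicate were 43.9% and 45.3%, against 44.8% and 43.9% where chosen, and D10 medians were 30.7% and 28.8%, against 28.7% and 30.7%.

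**Figure D2:**
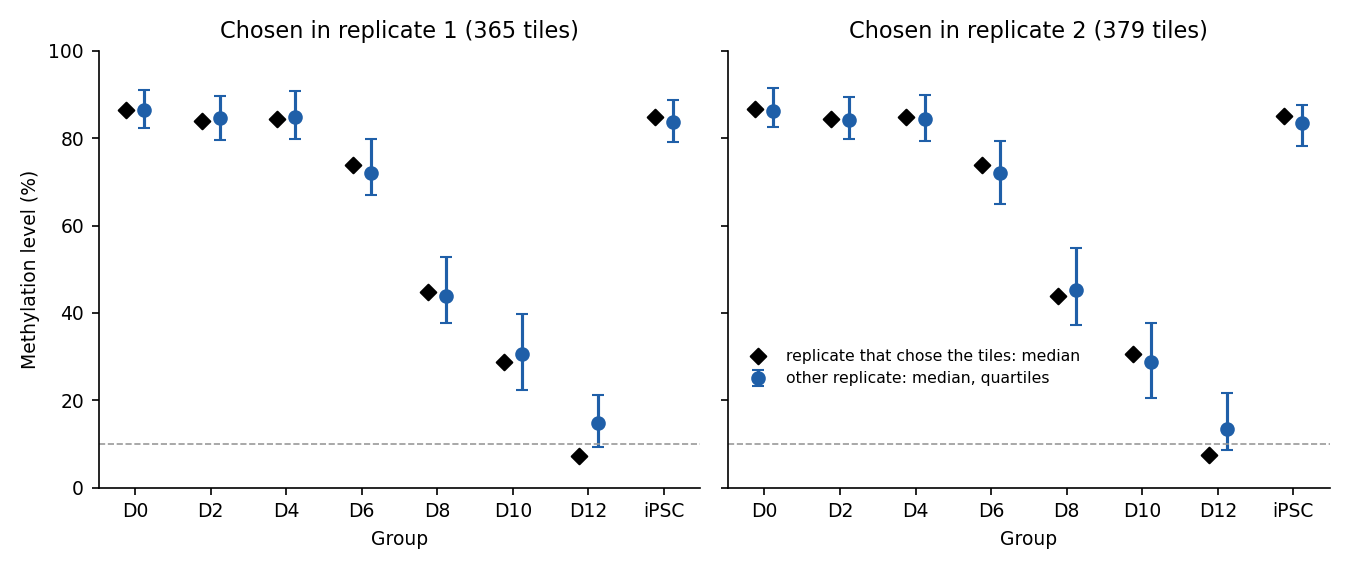
Median methylation level (%, vertical axis) in each group (horizontal axis) of tiles chosen by the rule in 1 replicate, shown in the choosing replicate (diamonds) and in the other one (circles with quartiles), with replicate 1 choosing on the left and replicate 2 on the right. At D12 the circles lie at 14.7% and 13.51% and the diamonds at 7.33% and 7.62%, while at every other group the 2 symbols lie close together.

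The tests compared D4 with D2, D8 with D4 and D10 with D8, groups whose values the rule did not read. The choice still bears on them, since members had to be high at D6 and low at D12, with D8 and D10 between. Each used edgeR's quasi-likelihood test on methylated and unmethylated reads over all 94337 tiles, the X and Y chromosomes included. Calls required a Benjamini-Hochberg adjusted p below 0.05 together with a difference of 10 points or more between group means.

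Between D2 and D4 none of the 59 members was called in edgeR's test, against 0% of all tiles called lower and 0.00106% (1 tile) called higher at D4. One member had an unadjusted p below 0.05, against 4.78% of all tiles, and a quasi-binomial model called none of the members. The members' median difference was -0.81 points, with single tiles from -16.9 to 10.2 points. A change of these tiles from D2 to D4 was thus not detectable against the spread between libraries.

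Between D4 and D8, 56 of the 59 members were lower in edgeR's test and 0 were higher. Among all tiles 69.3% were called lower and 0.279% higher, so most of the genome measured moved the same way and the count alone does not set the members apart. The median change was -45.8 points in the members, -22.9 points over all tiles and -26.6 points in the comparison tiles. These are the 5670 tiles that met the D0, iPSC and D6 conditions but were not members, and 91.9% of them were called lower. Both D8 libraries lay below both D4 libraries in 58 of the 59 members. The same was not counted over the other tiles, so this number does not set the members apart either.

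The 3 members not called at D8 are named after their values were seen. The tile at chr1:36821001-36822000 stood at 90.7% and 81.3% at D4 and at 72.9% and 73.0% at D8, a change of -13.1 ± 4.73 points (SE; edgeR adjusted p = 0.0932). The tile at chr2:26772001-26773000 stood at 86.4% and 76.9% and then at 65.5% and 65.7%, a change of -16.1 ± 4.74 points (edgeR adjusted p = 0.106). The tile at chr16:85382001-85383000 had D4 libraries 34.3 points apart, at 61.7% and 96.0%, and D8 libraries at 70.1% and 56.5%, so that its groups overlapped (edgeR adjusted p = 0.276). All 3 still had most of their fibroblast methylation at D8 and were at or below 10% on D12, 4 days later.

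Between D8 and D10, 20 of the 59 members were called lower in edgeR's test and 0 higher, against 16.6% of all tiles called lower and 0.0742% higher. That is 33.9% of the members and 11.96% of the comparison tiles. An unadjusted p below 0.05 was found in 37 members (62.7%), 36.6% of all tiles and 29.4% of the comparison tiles. The median change was -15.2 points in the members, -8.81 points in the comparison tiles and -8.56 points over all tiles. All 20 had also been called lower at D8, 36 were called at D8 only and 3 were called at neither. The count rests on few libraries: it was 8 without D8 replicate 1, and 13 without either D10 replicate. Without D10 replicate 1, 1 member, chr14:32780001-32781000, was called higher at D10 (53.4 points, edgeR adjusted p = 0.0307). The number called lower over all tiles also fell whenever a D8 or D10 library was left out. When the D8 and D10 libraries were fitted alone the count of members called was 0, as it was for all tiles, with 23 members at an unadjusted p below 0.05.

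**Figure D3:**
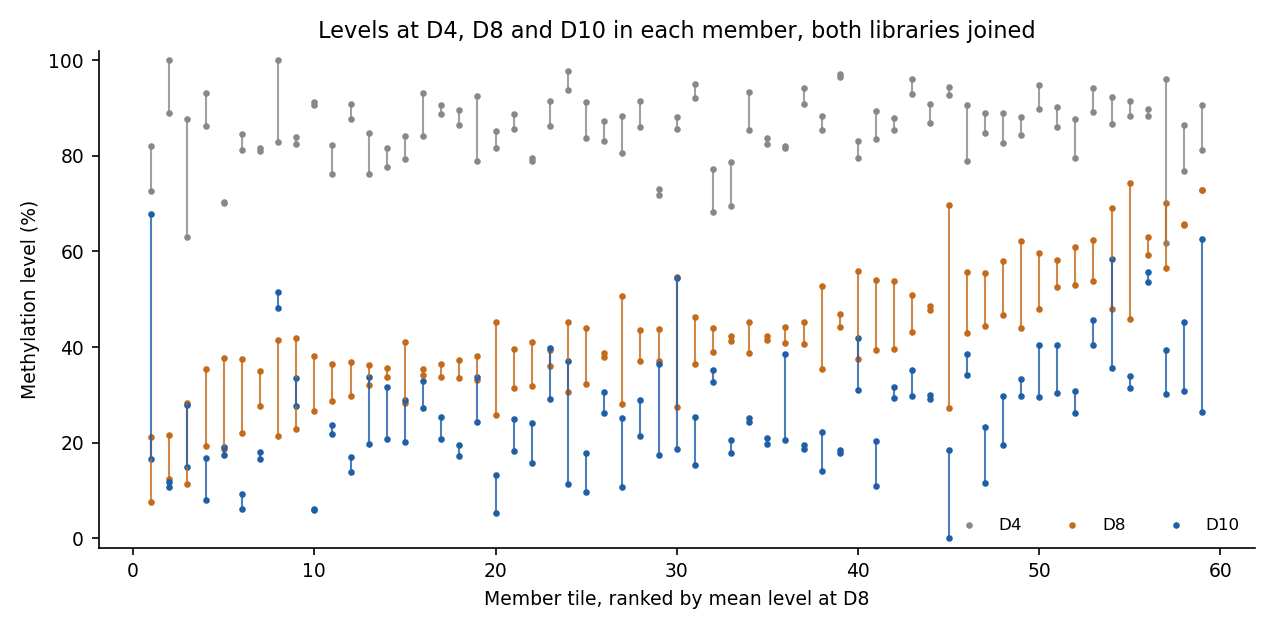
Methylation level (%, vertical axis) of each of the 59 members, ordered along the horizontal axis by their mean level at D8, with points for the libraries of D4, D8 and D10. The D8 means run from 14.4% to 72.9%, and both D8 libraries lie below both D4 libraries in 58 of the 59 tiles, which was not counted over other tiles.

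The largest of the falls over 2 days came between D6 and D8 in 43 of the 59 members (72.9%), between D8 and D10 in 6 and between D10 and D12 in 10, and in none of them earlier. Among the comparison tiles the largest fall came between D6 and D8 in 34.9% and between D10 and D12 in 49.8%. The median member lost 33.2 points from D6 to D8, 15.2 from D8 to D10 and 19.3 from D10 to D12. The median comparison tile lost 17.5, 8.81 and 19.2 points over the same steps. The last step was thus of like size in both sets and the earlier ones were larger in the members. D6 and D12 took part in the choice, so these steps are a description.

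**Figure D4:**
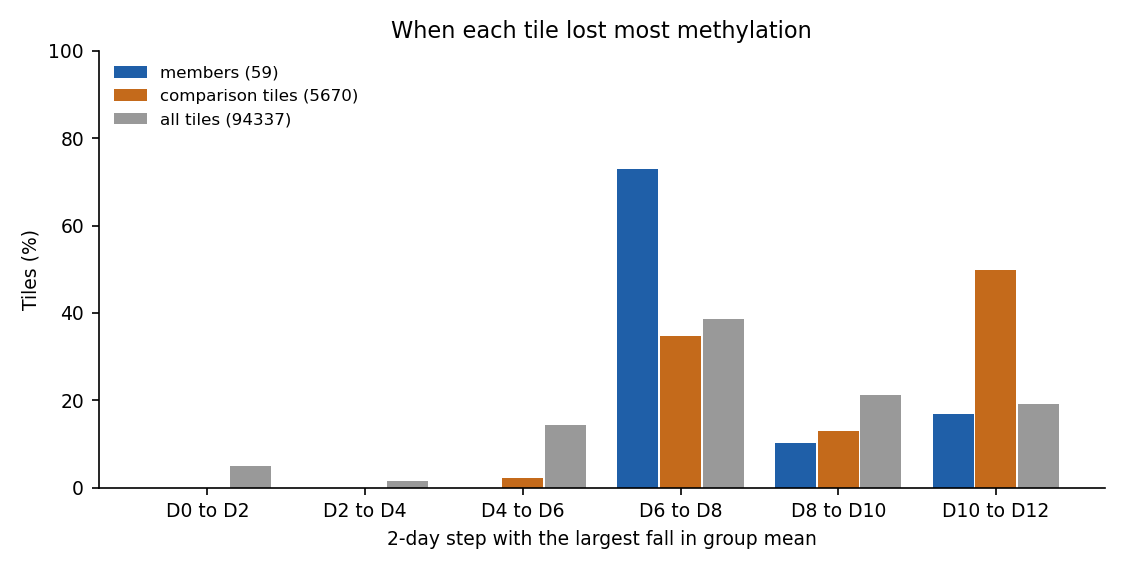
Share of tiles (%, vertical axis) whose largest fall in group mean over 2 days came in each step (horizontal axis), for the 59 members, the 5670 comparison tiles and all 94337 tiles. The members' bar at D6 to D8 reaches 72.9%, against 34.9% for the comparison tiles and 38.6% for all tiles, and the comparison tiles' highest bar, 49.8%, is at D10 to D12.

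At D8 and D10 the members already lay low among tiles with the same starting and iPSC levels. The median member stood at 41.1% at D8 and 25.2% at D10, and the median comparison tile at 59.9% and 50.4%. Over all tiles, whose D0 median was 65.7%, the medians were 35.6% at D8 and 24.3% at D10. The members were thus not low among tiles in general. At D8, 54 of 59 members were below the comparison median, and at D10 58 of 59. Only 4.39% of comparison tiles at D8, and 3.62% at D10, lay below the members' median. At D2 and D4 the 2 sets did not stand apart in this way: the members' medians were 86.8% and 86.7%, the comparison tiles' 86.2% and 86.9%, and 27 and 31 of 59 members were below the comparison median. The comparison is descriptive and was not tested, since D12 levels separate the 2 sets and D10 and D12 levels are themselves related (r = 0.74 across the comparison tiles). As a share of each tile's own fall from D0 to D12, the median member had completed 15.1% by D6, 56.6% by D8 and 75.6% by D10, and the median comparison tile 18.1%, 49.5% and 65.6%.

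The deepest-read member was chr11:75484001-75485000, with 4 measured cytosines and at least 709 reads in each library. It stood at 97.0% and 98.1% at D0, 97.0% and 95.9% at D2, 97.2% and 96.4% at D4 and 83.8% and 86.6% at D6. It then fell to 44.3% and 46.8% at D8, 17.8% and 18.6% at D10 and 7.66% and 5.12% at D12, and stood at 81.2% and 81.1% in iPSCs. The replicates lay within 3 points of each other in every group, and the iPSC level, though above the 80% limit, lay -16.4 points from the fibroblast level. The change from D4 to D8 was -51.2 ± 1.33 points (edgeR adjusted p = 2.8e-05), and that from D8 to D10 was -27.4 ± 1.33 points (edgeR adjusted p = 0.00602), which lost its call in the fit of the 2 groups alone (0.200), kept it in the other alternatives that tested the tile, and could not be tested with a minimum of 5 sites. Its 4 sites lay on the same strand within 17 bp, so the same reads can cover all of them. Their levels ran from 43.7% to 48.4% at D8 and from 16.3% to 20.1% at D10.

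The tile at chr7:67956001-67957000, with 10 cytosines and at least 601 reads per library, had an iPSC level within 1 point of its fibroblast level. It stood at 84.2% and 83.7% at D0, 82.7% and 84.7% at D2, 82.5% and 83.7% at D4 and 75.2% and 69.1% at D6. The levels were 41.5% and 42.4% at D8, 19.8% and 21.1% at D10, 4.80% and 5.06% at D12 and 82.7% and 83.4% in iPSCs. No 2 neighbouring days from D4 on overlapped. It was lower at D8 by -41.1 ± 0.76 points (edgeR adjusted p = 3.8e-05) and again at D10 by -21.5 ± 0.78 points (edgeR adjusted p = 0.00514).

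At chr1:89873001-89874000, with 14 cytosines, the course flattened after D8. Its levels were 83.9% and 83.4% at D0, 78.8% and 82.2% at D2, 77.8% and 81.6% at D4, 72.5% and 74.0% at D6 and 35.7% and 33.7% at D8. The D10 libraries stood at 31.6% and 20.7%, 10.9 points apart, and those of D12 at 9.56% and 8.06%, with 82.2% and 81.8% in iPSCs. The fall to D8 was -45.0 ± 2.18 points (edgeR adjusted p = 4.5e-05), and the change from D8 to D10 was -8.55 ± 5.55 points (edgeR adjusted p = 0.133). Its 14 sites were uneven within the tile at D10, from 0% to 51.2%.

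The other 5 of the 8 deepest-read members followed the same order of days. At chr4:57331001-57332000, also with 14 cytosines, levels were 90.9% and 87.0% at D4, 47.8% and 48.6% at D8, 29.1% and 29.9% at D10 and 7.59% and 4.89% at D12. The replicates at D8 and D10 differed by less than 1 point, and the tile was lower at D10 by -18.7 ± 0.58 points (edgeR adjusted p = 0.0301), a call lost whenever any one of the 4 D8 and D10 libraries was left out (edgeR adjusted p from 0.0779 to 0.0960). At chr12:16893001-16894000 levels were 90.2% and 86.1% at D4, 58.3% and 52.6% at D8, 30.5% and 40.5% at D10 and 8.41% and 9.68% at D12. The D10 call of this tile (edgeR adjusted p = 0.0221) was lost without D8 replicate 1 (0.0983) and without D10 replicate 1 (0.106). At chr7:63818001-63819000 the D8 replicates stood 14.1 points apart, at 53.8% and 39.7%, and D10 at 29.3% and 31.7%. Its D10 call (edgeR adjusted p = 0.0425) was lost without D8 replicate 1 (0.222) and without either D10 library (0.139 and 0.0895). The tiles at chr12:53888001-53889000 and chr14:68175001-68176000 were not called at D10 (edgeR adjusted p = 0.0929 and 0.0795).

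The members differed most among themselves at D8 and D10. Single tiles ranged from 21.3% to 74.4% in D8 replicate 1 and from 7.55% to 73.0% in replicate 2, and from 0% to 55.6% and from 5.26% to 67.9% in the D10 libraries. Of the 59, 47 had a D8 mean below 50%, 19 had a D10 mean below 20% and 6 a D10 mean above 40%. Part of this spread was shared by the replicates: across the 59 tiles the levels in the 2 libraries correlated with Pearson's r = 0.51 at D8 and 0.47 at D10, but with 0.21 at D12, where the rule left a range of 10 points. The D8 and D10 means correlated with r = 0.48 (Spearman's rho 0.46) across the 59 members and 0.76 across the comparison tiles. These correlations are across tiles of the same libraries and are given as descriptions.

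Among the 38 members whose 16 libraries all held 100 reads or more, the lowest at D8 was chr17:80469001-80470000. It had fallen from 86.2% and 93.2% at D4 to 35.4% and 19.4% at D8, and stood at 16.8% and 7.93% at D10 and 1.91% and 2.73% at D12, with 81.9% and 89.1% in iPSCs. The change to D8 was -62.3 ± 8.74 points (edgeR adjusted p = 0.000124). The tile at chr2:154062001-154063000 was near its D12 level by D10: from 81.2% and 84.6% at D4 it went to 37.4% and 22.0% at D8 and to 9.18% and 6.13% at D10. Its D12 levels, 3.27% and 8.10%, overlapped those of D10, and its fall from D8 to D10 of -22.1 ± 7.84 points was called (edgeR adjusted p = 0.0169), though not without D8 replicate 1 (0.0848) or D10 replicate 2 (0.0691). At chr8:9230001-9231000 levels were 81.6% and 81.0% at D4, 34.9% and 27.8% at D8, 16.6% and 17.97% at D10 and 1.47% and 6.69% at D12. The tile at chr11:109010001-109011000 fell from 84.0% and 82.5% at D4 to 22.8% and 41.8% at D8 and then stayed at 27.7% and 33.5% at D10, inside the D8 range, before it reached 5.80% and 9.38% at D12.

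The highest at D8 was chr1:36821001-36822000, described above, whose D10 libraries disagreed, at 26.4% and 62.7%, before both reached 9.09% and 8.93% at D12. The tile at chr3:51641001-51642000 lost methylation last: it stood at 59.3% and 63.0% at D8 and still at 55.6% and 53.7% at D10, and fell by 47.2 points to 7.78% and 7.06% at D12. It was also at 84.6% and 85.6% in iPSCs, 1.63 points below its D0 mean. Its change from D8 to D10 was -6.50 ± 2.05 points (edgeR adjusted p = 0.293). By contrast chr7:25320001-25321000 went from 60.9% and 53.0% at D8 to 30.8% and 26.3% at D10 (-28.4 ± 4.53 points, edgeR adjusted p = 0.0131, or 0.0625 without D8 replicate 1). At chr1:135148001-135149000 the D8 libraries stood at 74.4% and 45.9% and the D10 libraries at 33.9% and 31.4%, and the D10 call (edgeR adjusted p = 0.0405) was lost without D8 replicate 1 (0.166). At D10 these 8 tiles, alike at D0 and D12, thus ranged from the 7.66% of the chromosome 2 tile to the 54.7% of the chromosome 3 tile.

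Replicates disagreed by 20 points or more in 2 members at D4, 6 at D8 and 5 at D10, and in none at D0, D2, D6, D12 or in iPSCs. Among the comparison tiles 8.57% differed by as much at D8 and 7.07% at D10. The widest gaps were in chr14:32780001-32781000 at D10, with 16.5% of 103 reads and 67.9% of 56 reads methylated, and in chr18:12564001-12565000 at D8, with 27.3% of 139 reads and 69.7% of 185. In 3 of the 59 members the mean was higher at D10 than at D8, with no call in edgeR's test of all libraries. They were the chromosome 14 tile just named (27.8 ± 26.6 points, edgeR adjusted p = 0.208, called without D10 replicate 1), chr9:13472001-13473000 (18.5 ± 10.1 points, edgeR adjusted p = 0.343) and chr11:98371001-98372000 (1.53 ± 10.7 points, edgeR adjusted p = 0.903). In the chromosome 9 tile both D10 libraries, at 48.3% and 51.6%, lay above both D8 libraries, at 41.4% and 21.4%, whereas in the other pair of tiles the groups overlapped. All of these tiles were named after their values were seen, except the chromosome 18 tile.

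The members held few CpGs. A tile had a median of 5 measured cytosines, against 8 in the comparison tiles and 6 over all tiles. At most 4 distinct CpGs were listed in any library in 44.1% of members, 19.4% of comparison tiles and 33.7% of all tiles. This was not particular to the members. Tiles that met the D0, iPSC and D12 conditions but had lost 25 points or more in a D6 library had a median of 4 cytosines. Of these 27 tiles, 51.9% had at most 4 CpGs. The measured cytosines of a member spanned 16 to 253 bp, with a median of 113 bp, so a level describes a stretch of the window and not all of it. Members also had fewer reads than the comparison tiles, with medians of 147 and 189 in the shallowest library. The lower D8 and D10 levels were present at like CpG number too. With at most 4 CpGs the medians were 38.2% in 26 members and 56.3% in 1097 comparison tiles at D8, and 22.9% and 43.1% at D10. With 5 to 9 CpGs they were 41.8% (27 members) and 58.2% at D8, and 26.8% and 48.7% at D10. With 10 or more they were 28.2% (6 members) and 56.5% at D10. In the 38 members whose libraries all held 100 reads or more, the medians were 41.5% at D8 and 24.6% at D10. Such comparison tiles had 59.8% and 51.2%.

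Within a member the loss was not limited to the cytosines the rule had read, but it was less complete at the others. Cytosines of the same tiles that fell short of 10 reads in some other library, but were listed in both D12 libraries, numbered 155 in 36 members and had a pooled level of 15.1% ± 2.19 (SD, n = 2 libraries) at D12. Of these 155, 61 (39.4%) were at or below 10% at D12 and 48 (31.0%) above 20%. Among the 362 cytosines that the rule had read, the shares were 80.7% and 2.21%. The same kind of cytosine as the 155 had a pooled level of 35.0% ± 0.41 in the comparison tiles. There 9.60% were at or below 10% and 75.8% above 20%. The set listed varies with the library: such cytosines in both D0 libraries numbered 192 in 41 members, with a pooled level of 76.2%, and those of the comparison tiles stood at 80.7%. Of the 362 cytosines that defined the members, 12, each in a different tile, were already at or below 10% at D0, and 5 of those were at or below 10% in every group, so a tile of 80% can include an unmethylated position.

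The members lay apart from one another. They fell on 18 of the 19 autosomes, with 7 on chromosome 11, 6 on chromosome 2 and none on chromosome 15. No member adjoined another, and the smallest distance between the starts of 2 members was 1233000 bp. Of the tiles directly beside a member, 20 were measured. Their median level was 72.0% at D0, 23.2% at D10, 12.3% at D12 and 71.1% in iPSCs, and 6 of the 20 (30.0%) were at or below 10% in both D12 libraries. The 1844 measured neighbours of comparison tiles had medians of 75.4%, 39.0%, 24.9% and 73.7%, and 4.07% of them were at or below 10% at D12. Over all tiles the medians were 65.7%, 24.3%, 15.7% and 63.6%, and the lower quartile of the D12 means was 9.92%. Neighbours of members were thus lower at D12 than those of comparison tiles, but not far from tiles in general. Only 2 of the 20 had been at 80% or more in both D0 libraries, and those 2 stood at 13.1% and 27.99% at D12. Genes at these positions and their sequences are not analysed here, since the reference tables at hand are of another genome build than the files.

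Most tiles erased at D12 stood short of 80% in iPSCs. Of the 266 autosomal tiles that met the D0, D6 and D12 conditions, the 59 members (22.2%) were those at 80% or more in both iPSC libraries. The same share was not counted among tiles that met the D0 and D6 conditions at any D12 level. It therefore does not set the erased tiles apart. By the mean of the iPSC libraries, 74 of the 266 stood at 80% or more, 153 from 50 to 80%, 34 from 20 to 50% and 5 below 20%. The 207 tiles not full in iPSCs had passed D8 and D10 much as the members had, with medians of 40.1% and 22.8%, and had 6.36% at D12 and 70.2% in iPSCs. Their median D0 level was 84.3%, below the 87.8% of the members, so they also began closer to the 80% limit. The iPSC libraries are a separate group of cells and not a later day of the same culture, so a level in iPSCs above that of D12 does not show that the D12 cells regained methylation. A further 27 tiles met the D0, D12 and iPSC conditions but had lost 25 points or more in a D6 library, and their medians were 61.5% at D6, 34.5% at D8 and 18.1% at D10.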

How the data were processed

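Genomic DNA from 16 libraries was measured by RRBS. Per the submitters' processing notes, fastp 0.20.1, Bismark 0.23.0, Bowtie2 and methylKit were used with the GRCm39 build. The deposited tables give, for each cytosine and strand, its coverage as a count of reads and the percent of methylated and unmethylated reads, as the authors computed them, with no site below 10 reads. Methylated read counts were recovered from coverage times percent, which gave whole reads at every site. Conversion rates and duplicate removal are not stated in the labels.

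Sites with 10 or more reads in all 16 libraries were summed into 1000-bp tiles with at least 3 sites, strands counted separately. The members, the comparison tiles and the tests were chosen with earlier results of these data known. Methylated and unmethylated counts of all 94337 tiles were fitted with edgeR 4.0.16 (quasi-likelihood test, 16 libraries in 1 fit, 8 residual degrees of freedom) after the code was tested on simulated counts, with Benjamini-Hochberg adjustment over all tiles. Differences in points are between means of library levels, with the SE from the SDs of the 2 groups. Exact 95% intervals came from scipy 1.17.1. Requiring 10 reads in every library keeps 27.5% of the cytosines listed in any library.

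Tiles named by rule were the 8 members with most reads in their shallowest library, the 4 lowest and 4 highest at D8 among members with at least 100 reads in each library, and the 3 nearest the D12 limit on either side. Other tiles were named after their values were seen. Alternatives changed the read minimum, the site minimum, the strands, the tile start, the limits, the model and the libraries. Shared replicate numbers did not pair the libraries.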

Additional observations from a re-analysis of the deposited data

How the results depend on the processing

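The number of members depended on the limits. It was 33 with at least 5 sites per tile, 35 with strands merged, 6 with a D12 limit of 5%, 254 with a limit of 15% and 209 with the rule on group means. With single D0, D6, D12 or iPSC libraries left out it ran from 66 to 200 (the rule reads no D8 or D10 library), with 197 without D12 replicate 1 and 200 without D12 replicate 2. A minimum of 20 reads gave 84 tiles, of which 26 were among the 59. Only 32 of the 59 could be tested at that minimum. Tiles shifted along the chromosome gave 60, which overlapped 24 of the 59. With the shift, the identity of the members thus changed more than their number did.

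The median D8 level was 31.9% with the 5% limit and 46.2% with the 15% limit, and ran from 39.7% to 46.7% with libraries left out. The median D10 level was 26.99% with 5 sites, 22.8% with strands merged, 27.3% with the shifted start, 23.4% and 29.0% with the 5% and 15% limits, and ran from 24.3% to 31.9% with libraries left out.

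Members called lower from D4 to D8 numbered 31 of the 32 tested with 20 reads, against 34600 of 47199 tiles in all. With 5 sites they numbered 32 of the 33 tested, against 44980 of 65107 tiles. With single D4 or D8 libraries left out, the members' median change ran from -45.1 to -43.6 points, against -23.2 to -22.1 points over all tiles. From D8 to D10 they numbered 9 with a 25-point minimum, 0 with the 2 groups fitted alone, 30 in the quasi-binomial model and 8 to 16 with libraries left out, with 1 called higher without D10 replicate 1. Of all 94337 tiles, 2943 were called lower from D8 to D10 with the 25-point minimum. The number was 0 with the 2 groups fitted alone and 19186 in the quasi-binomial model. With single D8 or D10 libraries left out, the members' median change from D8 to D10 ran from -17.6 to -15.1 points. Over all tiles it ran from -8.77 to -7.93 points. No setting called a member from D2 to D4. Among the named tiles no direction of a called value reversed, and 32 of 219 alternative values for D8 to D10 lost the call and 12 gained it, against 2 lost of 219 for D4 to D8.

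With the replicate number as a block, 0, 56 and 21 members were called lower in the 3 comparisons, against 0, 64911 and 14087 of all 94337 tiles. Deviations of same-numbered libraries correlated between -0.014 and 0.0078 over 28 pairs of groups, none above 0.1, so the numbers were not treated as pairs.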

Other observations

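On the X and Y chromosomes, which the rule did not reach, 227 of 1954 tiles met the D0, iPSC and D6 conditions, and 1 of them was also at or below 10% in both D12 libraries.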
